A study of Homo sapiens with 4 samples.

Results

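The RAB small GTPases were followed in MDA-LM2 cells, a lung-metastatic line derived from human MDA-MB-231 breast cancer cells, after knockdown of TARBP2, whose product binds double-stranded RNA and partners with Dicer. A gene was counted as a member when its symbol was RAB, a number and at most 1 letter and it was not a pseudogene. Of 19468 genes that could be named in the authors' deposited table, 62 met this rule, from 71 sequence accessions (records). A further protein-coding symbol that fits the rule, RAB44, had no matching record and was not analysed here. The knockdown group held 2 arrays, 1 for each of 2 independent small interfering RNAs (siRNAs, siTARBP2-1 and siTARBP2-2), and the control group held 2 arrays of cells given siControl, which the design text calls mock-transfected. All cells were of the same line, were transfected with the same lipid reagent and were harvested 48 hours later, and total RNA was hybridised to Illumina BeadChips. The line is a single selected derivative, and no label says that the arrays of a group came from separate cultures.

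RAB proteins are membrane switches. Bound to GTP they recruit effectors that bud, move, tether and fuse vesicles, and bound to GDP they are drawn off the membrane by GDP dissociation inhibitors. Exchange factors load GTP, GTPase-activating proteins end the signal, and a prenyl transferase with an escort protein adds the lipid that anchors the protein. Each member marks its own stretch of the secretory or endocytic route, and in breast cancer cells RAB proteins are known for the delivery of integrins and matrix proteases to the cell surface.

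The values described here are log fold changes, 1 for each record, averaged over the records of a gene, and their column header labels them siTARBP2 to siControl. The arrays behind them, the weight of each siRNA, the log base and any replicate error are not stated. The values could not be traced to the arrays. Of 1757 values of the authors' deposited table over 0.5 in size, 949 lay within 0.0001 of some probe's log2 difference between the mean of both siRNAs and the mean control, and 950 did so with the sign turned. For siRNA 1 alone these counts were 1282 and 1246, and for siRNA 2 alone 612 and 601. The direction, knockdown against control, is therefore that of the header and was not checked on the arrays. Because the probes of the arrays carry no gene names here, no RAB gene could be given a value on each array, a level, a standard deviation or a test. A value is therefore a description of 1 deposited comparison. In bulk RNA, fewer cells of a kind and less RNA per cell cannot be told apart.

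The arrays of the 2 siRNAs differed widely from each other. With 1 array for each siRNA, a difference between siRNAs cannot be told apart from one between single arrays. Of 47321 probes, 41.0% to 45.7% were detected on an array. Over the 21075 probes kept for testing, the log2 difference between the arrays of the 2 siRNAs had an SD of 0.852, against 0.250 between the 2 controls. The array of siRNA 1 stood apart, with an SD of 0.805 and 0.799 against the controls, where that of siRNA 2 had 0.384 and 0.395. None of these probes passed the comparison of knockdown with control (limma, smallest adjusted p = 0.805), and 815 had an unadjusted p under 0.05. Without the array of siRNA 1 the count past the test was 4479 and without that of siRNA 2 it was 12035, with the lone array assumed to vary like the controls. TARBP2 itself was at -0.78 in the authors' deposited table, with 121 named genes lower. The marker genes of the line, for which levels are needed, could not be checked.

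As a family, RAB genes were centred on 0. Their median in the authors' deposited table was 0.0004, beside 0.002 for all named genes, with 31 members on each side of 0. Their SD of 0.253 in the authors' deposited table was close to the 0.239 of all genes. Below -0.2 stood 13 members (21.0%), beside 12.1% of all genes of the authors' deposited table. The authors' class of up-regulated records starts at 0.2, and 6 members stood higher (9.68%), beside 13.1% of all genes of the authors' deposited table. Counted by record, 12.7% of RAB records were in that class, beside 13.2% of the records of all named genes. The larger share below -0.2 came with 8 members between -0.3 and -0.2 in the authors' deposited table. Below -0.3 there were 5 members (8.06%), beside 7.91% of all genes of the authors' deposited table. Above 0.3 all 6 remained (9.68%), beside 8.32% of all genes of the authors' deposited table. Outside -0.5 to 0.5 lay 4 members (6.45%), beside 6.35% of all genes of the authors' deposited table. At these wider thresholds the shares were near the background and are no result about the family.

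**Figure D1:**
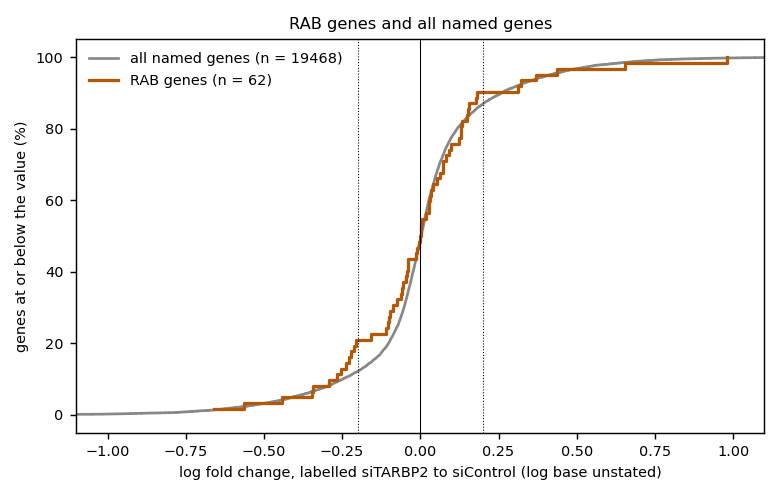
Cumulative share of genes (y axis, percent) at or below each log fold change of the authors' deposited table (x axis), for the 62 RAB genes and all 19468 named genes, with dotted lines at -0.2 and 0.2. The RAB curve runs above that of all genes around -0.2, where 21.0% of RAB genes and 12.1% of all genes lie below. The lower quartile was -0.10 for RAB genes and -0.07 for all genes, and the upper quartile 0.10 and 0.08.

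The promoters of the 2 highest and the 2 lowest members are shown because they are the ends of the family, with the motifs found in them in capitals. The highest members were RAB40B and RAB1B and the lowest RAB8B and RAB10. Each window runs from 250 bases before to 50 bases after the RefSeq gene start in GRCh38.p14, on the strand of the gene. RAB40B lies at chr17:82698649-82698948 on the minus strand, RAB1B at chr11:66268389-66268688 on the plus strand, RAB8B at chr15:63189356-63189655 on the plus strand and RAB10 at chr2:26033834-26034133 on the plus strand.
RAB40B: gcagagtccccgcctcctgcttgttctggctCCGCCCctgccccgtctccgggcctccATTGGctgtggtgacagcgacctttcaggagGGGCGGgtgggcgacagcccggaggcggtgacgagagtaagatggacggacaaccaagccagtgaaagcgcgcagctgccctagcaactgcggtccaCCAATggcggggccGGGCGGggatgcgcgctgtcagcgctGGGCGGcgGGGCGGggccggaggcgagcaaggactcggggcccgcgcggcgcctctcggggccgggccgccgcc
RAB1B: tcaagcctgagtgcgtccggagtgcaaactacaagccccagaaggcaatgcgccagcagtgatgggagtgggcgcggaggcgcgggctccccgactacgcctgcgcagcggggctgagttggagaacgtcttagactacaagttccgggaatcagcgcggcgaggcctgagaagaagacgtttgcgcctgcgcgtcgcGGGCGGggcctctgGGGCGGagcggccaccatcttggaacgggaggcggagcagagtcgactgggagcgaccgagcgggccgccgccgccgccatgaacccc
RAB8B: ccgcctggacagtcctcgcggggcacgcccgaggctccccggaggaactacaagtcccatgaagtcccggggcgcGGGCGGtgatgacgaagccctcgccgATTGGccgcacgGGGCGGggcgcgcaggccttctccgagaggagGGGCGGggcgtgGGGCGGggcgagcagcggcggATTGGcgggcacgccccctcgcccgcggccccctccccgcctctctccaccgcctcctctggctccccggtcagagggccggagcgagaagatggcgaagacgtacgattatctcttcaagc
RAB10: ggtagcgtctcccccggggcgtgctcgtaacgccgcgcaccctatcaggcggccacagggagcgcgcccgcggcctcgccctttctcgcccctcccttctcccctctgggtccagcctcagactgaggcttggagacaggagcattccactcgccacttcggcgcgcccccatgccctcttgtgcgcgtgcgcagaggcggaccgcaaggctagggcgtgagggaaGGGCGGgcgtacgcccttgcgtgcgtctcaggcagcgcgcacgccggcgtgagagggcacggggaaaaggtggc
All 4 windows held the GC box GGGCGG, on either strand. The CCAAT box stood in the windows of RAB40B and RAB8B, the member highest and the member lowest in the authors' deposited table. Neither motif divided the ends of the family.

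Transport between the endoplasmic reticulum and the Golgi is the task of 11 members. Of these, 3 (27.3%) were under -0.2 and 1 (9.09%) over 0.2 in the authors' deposited table, beside 12.1% and 13.1% of all genes. Shares in groups as small as this and those below are descriptions, and no group was tested. RAB1B, which with RAB1A drives transport from the endoplasmic reticulum to the Golgi, was at 0.65 in the authors' deposited table, and 277 of all named genes were higher. RAB1A was at 0.03 in the authors' deposited table, so the pair that shares this task was 0.63 apart. RAB2A, which acts in retrograde Golgi transport and in fusion with lysosomes, was at -0.44 in the authors' deposited table, and its close relative RAB2B at -0.27. Both RAB2 genes were thus on the same side. RAB18, a protein of the endoplasmic reticulum and of lipid droplets, was at -0.21 in the authors' deposited table.

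RAB6A, the main RAB of retrograde transport at the Golgi, had a mean of 0.07 in the authors' deposited table that hides a split. Its record NM_002869 was at 0.63 and its record NM_198896 at -0.49 in the authors' deposited table, and RAB6A is known to make isoforms from alternative exons. It was the only one of the 7 members with more than 1 record whose records lay both above 0.2 and below -0.2. Among all 2500 named genes with more than 1 record, 43 did so (1.72%) in the authors' deposited table. The retrogenes RAB6C and RAB6D were at -0.01 and -0.05 in the authors' deposited table. Their sequence is so close to that of RAB6A that a probe may not separate them.

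Early endosomes are served by 10 members. Of these, 2 (20.0%) were over 0.2 and 2 (20.0%) under -0.2 in the authors' deposited table, beside 13.1% and 12.1% of all genes. RAB5B, which acts in the fusion of early endosomes, was at 0.37 in the authors' deposited table, against -0.01 for RAB5A and 0.12 for RAB5C. The records of RAB5C were at 0.29 and -0.04 in the authors' deposited table. RAB4A, which returns receptors quickly from early endosomes to the surface, was at 0.32 in the authors' deposited table and RAB4B at -0.04. RAB22A, which sorts cargo from early endosomes to recycling tubules, was at -0.34 in the authors' deposited table. RAB31, a relative of RAB22A that acts between the trans-Golgi and endosomes, was at -0.29 in the authors' deposited table. The group thus held RAB5B at its upper end and the related RAB22A and RAB31 at its lower end.

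Recycling and exocytosis hold the lowest members. Of the 10, 3 (30.0%) were under -0.2 and 1 (10.0%) over 0.2 in the authors' deposited table, beside 12.1% and 13.1% of all genes. The median of the 10 was -0.10. RAB8B, which carries vesicles to the plasma membrane and is the close relative of RAB8A, was at -0.66 in the authors' deposited table, with 264 of all named genes lower. RAB8A was at -0.11 in the authors' deposited table. RAB10, which acts in exocytosis and in the traffic of glucose transporters in adipocytes, was at -0.56 in the authors' deposited table. RAB13, a protein of tight junction traffic from the same branch as RAB8 and RAB10, was at 0.44 in the authors' deposited table. This branch of the family therefore held both the lowest members and the third highest. RAB11A, the RAB of the recycling endosome, was at -0.23 in the authors' deposited table and RAB11B at -0.10. RAB35, RAB14 and RAB25, which also act in recycling, were inside the threshold in the authors' deposited table (-0.10, -0.09 and -0.07).

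Late endosomes, lysosomes and related organelles are the site of 13 members. Of these, 3 (23.1%) were under -0.2 and 1 (7.69%) over 0.2 in the authors' deposited table, beside 12.1% and 13.1% of all genes. RAB7A, which governs fusion with lysosomes, was at 0.18 in the authors' deposited table, inside the threshold. RAB29, which recruits the kinase LRRK2 to membranes, was at -0.35 in the authors' deposited table. RAB32 and RAB38, which share the task of delivering cargo to melanosomes in pigment cells, were at -0.24 and -0.25 in the authors' deposited table. RAB29, RAB32 and RAB38 form a branch of closely related proteins, and all of them lay below -0.2 in the authors' deposited table. RAB34, which acts in lysosome positioning and in cilium formation, was at 0.31 in the authors' deposited table. RAB24, linked to autophagy, had 1 record at 0.07 and 1 at 0.19996 in the authors' deposited table, the latter just under the bound of the authors' class.

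Members of regulated secretion stayed near 0. All 8 lay between -0.04 and 0.15 in the authors' deposited table. Inside -0.2 to 0.2 lay 14563 of all 19468 named genes, so for a group of 8 this is no result about the group. The neuronal and endocrine genes RAB3A, RAB3B, RAB3C and RAB3D ran from -0.04 to 0.03 in the authors' deposited table. RAB26, a RAB of secretory granules, was the farthest from 0 in the authors' deposited table, at 0.15. RAB27A, which docks exosome-bearing endosomes at the plasma membrane, had 4 records from -0.10 to 0.30 in the authors' deposited table, with a mean of 0.06. Since the table gives no level, genes that these cells may not express cannot be told from genes that were expressed and did not differ.

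The cilium group and the RAB40 group were small. RAB23, a brake on hedgehog signalling, was at -0.22 in the authors' deposited table, with records at -0.39 and -0.05. RAB28, a protein of the ciliary base, was at -0.21 in the authors' deposited table, with records at -0.22 and -0.19. RAB40B was the highest member, at 0.98 in the authors' deposited table, where 37 of all 19468 named genes were higher. RAB40 proteins carry a SOCS box that joins them to a ubiquitin ligase, and RAB40B is known for directing matrix metalloproteinases to invadopodia in breast cancer cells. Its relatives RAB40C and RAB40A had values of 0.16 and -0.003 in the authors' deposited table. The value of RAB40B rests on 1 record, as do those of 55 of the 62 members. The 5 members outside these groups, RAB6C, RAB6D, RAB19, RAB33A and RAB42, lay between -0.05 and 0.04 in the authors' deposited table. Most of all named genes, 14563 of 19468, also lay inside -0.2 to 0.2.

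**Figure D2:**
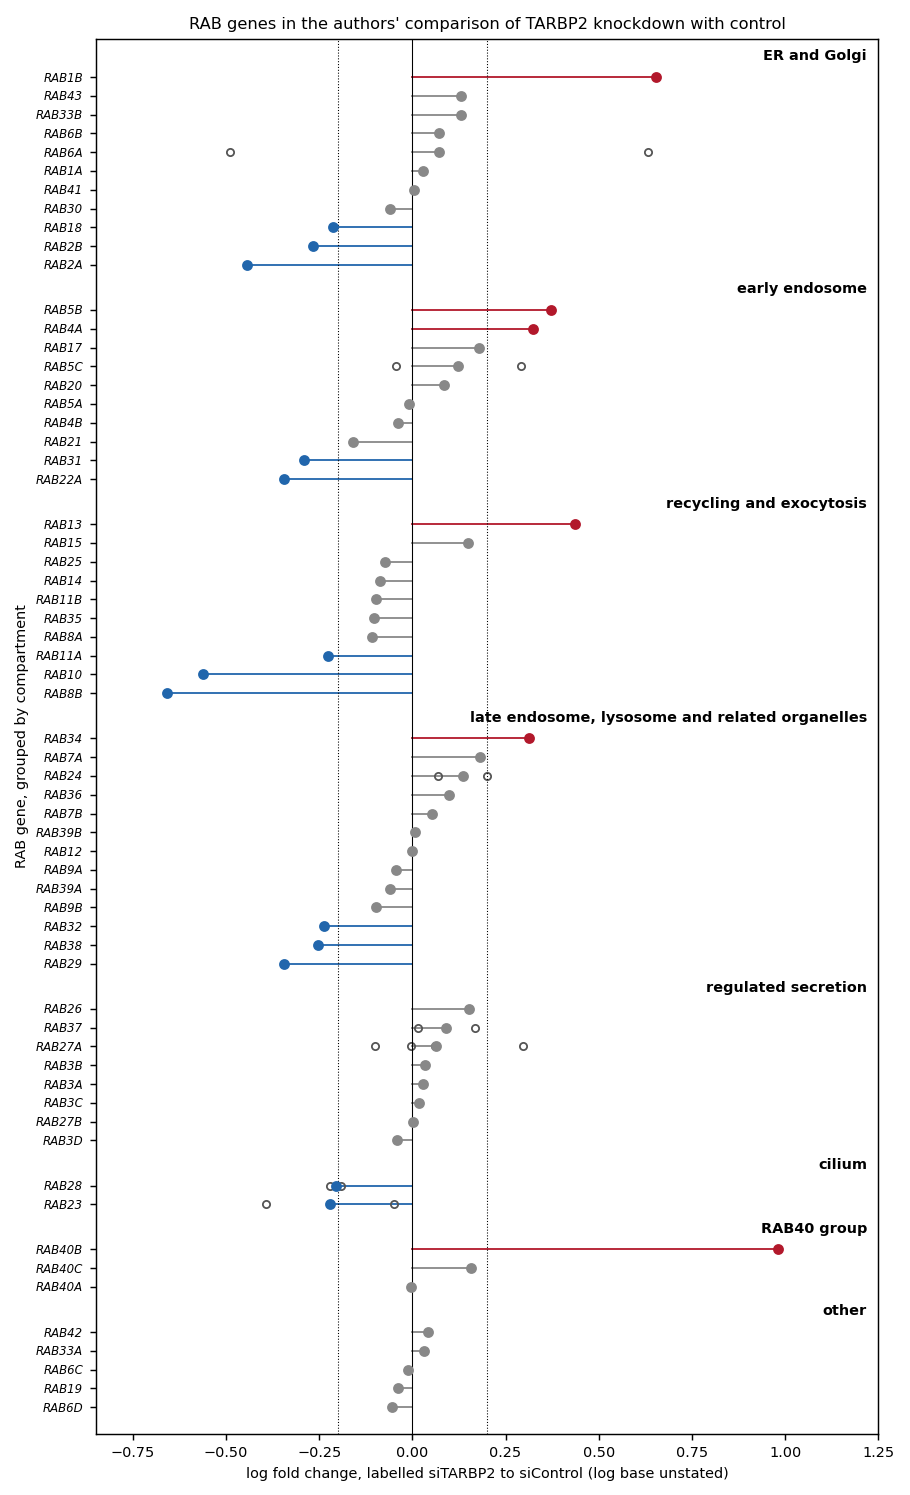
Log fold change in the authors' deposited table (x axis, log base unstated) for each of the 62 RAB genes (y axis), grouped by compartment. Filled points are gene values, open circles the records of genes with more than 1, and dotted lines mark -0.2 and 0.2; RAB40B at 0.98 and RAB8B at -0.66 are the ends, and the records of RAB6A fall on both sides.

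Relatives that share a number could be set against each other in 14 cases, with 34 members and 28 pairs. The median difference within such a pair was 0.113 in the authors' deposited table, against 0.191 over all 1891 pairs of RAB genes. Gaps over 0.5 were as common in such pairs, 4 of 28 (14.3%), as among all pairs (14.4%) in the authors' deposited table. Pairs share members, so these values are descriptions. RAB3 and RAB6 genes give many of the pairs, none of them over 0.13 apart. The RAB6A value in those pairs is a mean of records at 0.63 and -0.49. Without levels, likeness among relatives cannot be told from lack of expression. The widest gaps were between RAB40B and RAB40A (0.98) and between RAB40B and RAB40C (0.82) in the authors' deposited table. They were followed by RAB1A and RAB1B (0.63) and by RAB8A and RAB8B (0.55) in the authors' deposited table. In no pair did 1 gene lie over 0.2 and the other under -0.2 in the authors' deposited table. With 6 of the 62 members over 0.2 and 13 under -0.2, few pairs of any members could do so. The share over all pairs was not counted, so this is no result about relatives.

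**Figure D3:**
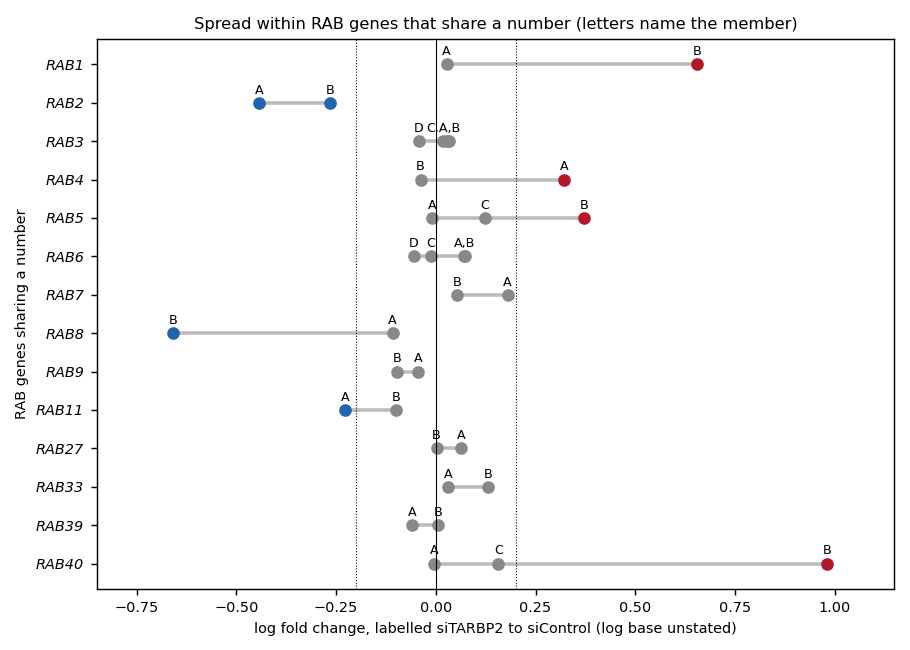
Log fold change in the authors' deposited table (x axis, log base unstated) of the RAB genes that share a number (y axis), with a letter above each member and a grey bar over the range. RAB40, RAB1 and RAB8 have the longest bars, at 0.98, 0.63 and 0.55, and RAB3 and RAB9 among the shortest.

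Genes that run the RAB cycle were described from lists drawn up by their known roles. Of 155 measured genes, 36 (23.2%) were over 0.2 and 25 (16.1%) under -0.2 in the authors' deposited table, where 13.1% and 12.1% of all genes did. Their median was 0.03 in the authors' deposited table. All named genes may include genes that these cells do not express, and 57.5% of them lay within 0.1 of 0. Without levels, the shares over expressed genes alone could not be given, here or for the lists below. Among 8 genes of lipid attachment and recycling, 3 were over 0.2 and 2 under -0.2 in the authors' deposited table. RABAC1, a prenylated RAB acceptor, was at 0.91 in the authors' deposited table. The 2 subunits of the RAB prenyl transferase lay on opposite sides, RABGGTA at 0.39 and RABGGTB at -0.38 in the authors' deposited table, although the records of RABGGTA spread from 0.06 to 0.72. CHM, a RAB escort protein, was at -0.21 in the authors' deposited table, and its relative CHML at 0.10.

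Of 37 measured exchange factors, 10 (27.0%) were over 0.2 and 5 (13.5%) under -0.2 in the authors' deposited table, beside 13.1% and 12.1% of all genes. SH3BP5L, a relative of the RAB11 exchange factor SH3BP5, was at 0.76 in the authors' deposited table. RIN1, an exchange factor for RAB5, was at 0.74 in the authors' deposited table, whereas its relative RIN2 was at -0.50. DENND10, of the DENN family of exchange factors, was at 0.52 in the authors' deposited table, and GAPVD1, another exchange factor of the RAB5 branch, at -0.46. RAB3IP, the exchange factor known as Rabin8 that activates RAB8, was at -0.44 in the authors' deposited table, with records at -0.80 and -0.07. Of the 14 subunits of the TRAPP complexes, which activate RAB1 and RAB11, 5 (35.7%) were over 0.2 and 3 (21.4%) under -0.2 in the authors' deposited table. TRAPPC5, TRAPPC1 and TRAPPC12 were at 0.72, 0.70 and 0.54 in the authors' deposited table, and TRAPPC4, TRAPPC6B and TRAPPC10 at -0.41, -0.25 and -0.24. Subunits of the same complex therefore lay on both sides.

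GTPase-activating proteins were found on both sides, 9 (24.3%) over 0.2 and 8 (21.6%) under -0.2 of 37 in the authors' deposited table. The shares of all genes were 13.1% over 0.2 and 12.1% under -0.2. TBC1D14, which regulates autophagy, was at 0.86, TBC1D10B at 0.62 and TBC1D17 at 0.40 in the authors' deposited table. TBC1D2, which acts on RAB7, was at -0.63 and TBC1D9B at -0.56 in the authors' deposited table. RAB3GAP1 and RAB3GAP2, the subunits of a complex that acts on RAB3 and serves as exchange factor for RAB18, were both at -0.42 in the authors' deposited table.

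Among 39 effectors, 6 (15.4%) were over 0.2 and 7 (17.9%) under -0.2 in the authors' deposited table. With 13.1% and 12.1% of all genes there, these shares were near the background and are no result about the effectors. OPTN, which binds RAB8 and acts as an autophagy receptor, was at -0.70 in the authors' deposited table. The RAB5 effectors APPL1 and APPL2, which are close relatives, were at -0.53 and 0.52 in the authors' deposited table. MICAL1, an actin-oxidising effector of the RAB8 and RAB1 branches, was at 0.56 and the Golgi tether GOLGA2 at 0.46 in the authors' deposited table, with SYTL4, an effector of RAB27, at -0.45. Of the 8 subunits of the HOPS and CORVET tethers, which act with RAB7 and RAB5, VPS18 was at 1.07 and VPS39 at 0.26 in the authors' deposited table, and none lay below -0.2. Of the 9 exocyst genes, which tether vesicles at the plasma membrane, EXOC2 alone lay outside the threshold in the authors' deposited table, at 0.30. The kinases LRRK2 and LRRK1 and the phosphatase PPM1H, which add and remove phosphate on RAB proteins, lay inside it, between -0.07 and 0.16 in the authors' deposited table.

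**Figure D4:**
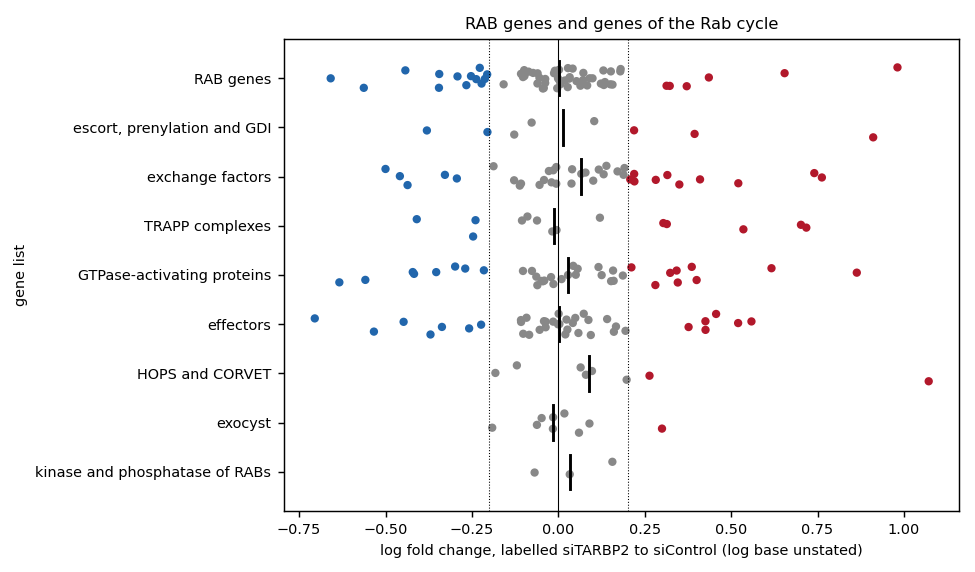
Log fold change in the authors' deposited table (x axis, log base unstated) of RAB genes and of genes of the RAB cycle by list (y axis); each point is a gene, black bars are medians and dotted lines mark -0.2 and 0.2. List medians lie between -0.02 and 0.09, with VPS18 at 1.07 and RABAC1 at 0.91 among the highest genes.

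Promoter letters were compared over the family. A promoter was found for 50 of the 62 members. The GC box, GGGCGG on either strand, was in 39 of the 50 (78.0%), beside 59.6% of the 14593 promoters of all genes of the table. It was in 10 of the 11 promoters of members below -0.2 and in 5 of the 6 of members above 0.2, and in 69.9% and 74.4% of the promoters of all genes on those sides. Inside the threshold it was in 24 of the 33 promoters of members (72.7%), beside 54.8% of the promoters of all genes there. The GC box was thus common in every part of the family and not only at its ends. CCAAT was in 13 of the 50 promoters, beside 36.5% of all, and the TATA box TATAAA in 4, beside 9.35% of all, on either strand. The E-box CACGTG was in 6, beside 1313 of all 14593, the ETS motif CCGGAAG in 9, beside 14.6% of all, and the cAMP response element TGACGTCA in 1, beside 2.74% of all. None of these motifs contains another, and a promoter can hold several. These matches describe letters in a window and do not show binding.

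Gene lengths were read from RefSeq. The 13 members below -0.2 had a median length of 57.8 kb, the 43 inside the threshold 26.7 kb and the 6 above 0.2 15.9 kb. All named genes had medians of 33.5 kb below -0.2, 22.3 kb between and 19.8 kb above 0.2. Both in the family and among all genes, those below -0.2 were thus the longest by their median. Single members departed from this order: RAB29, at -0.35 in the authors' deposited table, spans 7.5 kb, and RAB40B, the highest member, spans 43.7 kb. RAB10 spans 104.2 kb and RAB1B 8.9 kb. Whether length bears on the values was not tested.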

How the data were processed

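Total RNA of 4 samples was measured on Illumina BeadChips. Per the file headers, the authors deposited raw probe intensity values, each with a detection score that was read as 1 minus a detection p-value. A second deposited table holds intensity values that the authors had quantile-normalized, judging from their shared quantiles. The comparison table deposited by the authors lists a log fold change and a class for each accession, per the file headers. The headers give no log base: these deposited values were taken as log2 by assumption and are printed unconverted. The submitters' processing notes mention lumi, with settings not given in the sources used here.

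Accessions were looked up, versions dropped, in RefSeq for GRCh38.p14, which named 22411 of 39745, and a gene's value is the mean over its records. Planned tests of RAB probes were not run because no table used here names the probes. Probes were normalized with neqc (offset 16) in limma 3.58.1 (R 4.3.3), kept where detection p was under 0.05 on 2 or more arrays, and compared with lmFit and eBayes and Benjamini-Hochberg adjustment. With 2 arrays against 2, an exact permutation test cannot go below p = 0.333. The number of arrays limits the precision, and p-values reflect only the spread among these 4 arrays, which may be technical.

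Named are every member outside -0.2 to 0.2 or with records on both sides, RAB1A, RAB5A, RAB7A and RAB11A, their relatives, the member farthest from 0 in a group without such a member, and the 3 highest and 3 lowest genes outside -0.2 to 0.2 of each other list. RAB6C, RAB6D, RAB14, RAB19, RAB24, RAB25, RAB27A, RAB33A, RAB35, RAB42, RAB3GAP1, CHML, RAN, LRRK1, LRRK2 and PPM1H were named after their values were seen. Some genes that the rule names are not reported here. The members and lists were chosen with earlier results of these data known. Promoters and gene lengths are from RefSeq, GRCh38.p14.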

Additional observations from a re-analysis of the deposited data

How the results depend on the processing

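The 6 RAB genes above 0.2 and 13 below -0.2 were also counted with the median over records or with curated accessions alone. Neither choice could have changed these counts much. The curated choice kept the same 19468 genes with the same shares. A median equals the mean for 1 or 2 records, and RAB27A alone of the 62 members had more, with 4. With the record farthest from 0 the counts were 9 (14.5%) and 13 (21.0%), beside 14.4% and 13.2% of all genes. The lower share of RAB genes above 0.2 was thus not seen with that choice. The median over RAB genes was 0.0004 under each of these 3 choices. With a threshold of 0.3, 6 lay above and 5 below. Matching symbols through synonyms was not run, since the reference pairs accessions only with current symbols. No probe passed the limma comparison of knockdown with control in the planned form, where 815 had an unadjusted p under 0.05. The count was also 0 with a replicate block (1019 at an unadjusted p under 0.05), without the filter on detection, on the authors' normalized values, after scaling to a common median and without an intensity trend. Leaving out 1 array gave counts from 0 to 12035: 4479 when siRNA 1 was dropped, 12035 when siRNA 2 was dropped and 0 when a control was dropped, each time with the lone array assumed to vary like the other group. Same-numbered arrays shared only a number, and their deviations had a correlation of -0.042 across probes. The deposited comparison gives no replicate error, so no RAB value has a limit of its own.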

Other observations

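A related family of small GTPases had its own spread. Of 26 measured ARF and ARL genes, which recruit coats and tethers to membranes, 10 (38.5%) were under -0.2 and 4 (15.4%) over 0.2 in the authors' deposited table, beside 12.1% and 13.1% of all genes. SAR1B, the switch of the COPII coat, was at -0.37 in the authors' deposited table, while ARL2, ARF5 and ARF1 were at 0.81, 0.50 and 0.40. The records of ARF1 ran from 0.05 to 0.74 in the authors' deposited table. Among 9 genes listed as RAB-like, RAN included, RABL6 was at 0.49 and RABL3 at -0.30 in the authors' deposited table. The other 7 lay inside the threshold. None of these differences between families was tested.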
